A study of Mus musculus with 6 samples.

Results

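The platelet-derived growth factor (PDGF) family was examined in RNA of primary mouse hepatic stellate cells. The members were the 4 ligand genes Pdgfa, Pdgfb, Pdgfc and Pdgfd and the 2 receptor genes Pdgfra and Pdgfrb, chosen by symbol. All 6 were among the 22905 genes of the count table, and all 6 passed the filter on low counts. Both groups came from mice of genotype BucheKI/KI-Hep that had received CCL4 (carbon tetrachloride, a liver toxin used to model fibrosis). They comprised 3 libraries labelled PBS and 3 labelled DOX, and the series describes raised BUCHE (butyrylcholinesterase) in hepatocytes. The labels give neither the age of the animals, nor whether each library was 1 animal, nor what drives the introduced gene, and neither DOX nor S2W, a prefix that all 6 titles share, is spelled out. Neither DOX without the introduced gene nor animals without CCL4 were analysed here, so what DOX itself does cannot be told apart from what the introduced gene does.

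PDGF ligands are dimers of disulphide-linked chains. PDGF-A and PDGF-B are cut to their active form inside the cell by proprotein convertases, whereas PDGF-C and PDGF-D leave the cell with a CUB domain that extracellular proteases remove. The receptors are tyrosine kinases: PDGFR alpha binds the A, B and C chains, and PDGFR beta binds B and D chains. In injured liver, PDGF acting on PDGFR beta is a classical mitogen and chemoattractant of stellate cells, and endothelial cells, macrophages and platelets are known sources of ligand.

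The libraries held 36220282 to 37707364 counts. Bche had 8 to 26 counts in the PBS libraries and 582 to 3639 in the DOX libraries. The labels do not tie the libraries to separate animals or cultures, and the spread that the p-values rest on may be technical. Defining stellate genes were present at low levels per length, with PBS means of 0.391 FPKM (counts scaled to gene length and library total) for Lrat and 4.32 FPKM for Des, while Gfap had 0.00364 FPKM. The abundant stellate list genes Dcn and Ecm1 had 247 and 89.4 FPKM, and the endothelial genes Cdh5 and Cldn5 677 and 437 FPKM. Transcripts of several cell types were thus present, and for every result fewer cells of a type and less RNA per cell cannot be told apart.

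None of the 6 PDGF genes passed the test between DOX and PBS, at an adjusted p of 0.05 over all genes, where 6.41% of 14439 tested genes passed (926 genes). The upward calls made up 4.38% of all genes and the downward calls 2.04%. DESeq2, which called 18.4% of all genes, called 1 member, Pdgfc, and limma-voom, which called 5.97%, called 0. The same gene was the 1 member with an unadjusted p under 0.05, as 28.7% of all genes were. Their log2 fold changes lay between -0.76 for Pdgfrb and 1.02 for Pdgfc. In 2 members, Pdgfc and Pdgfd, every DOX library lay above every PBS library. Among all tested genes 34.6% had groups that did not overlap, 16.9% in the upward direction. The median over the 6 members was -0.17, against -0.01 over all genes tested, with 2 positive and 4 negative. The plot of counts by library shows how far each gene's libraries spread within a group.

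**Figure D1:**
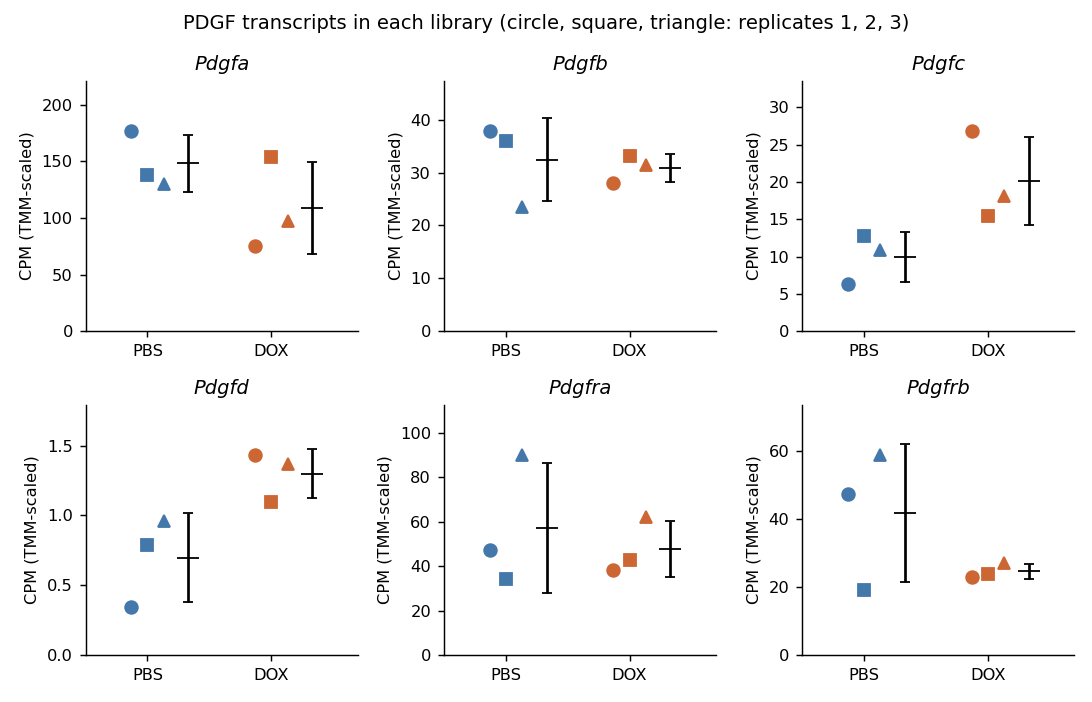
Level of each PDGF gene in the 3 PBS and 3 DOX libraries, in CPM (counts scaled to the TMM-adjusted size of each library); bars with caps are the mean and SD of 3 libraries. The groups are apart for Pdgfc and Pdgfd and overlap for the other 4 genes, and for Pdgfrb the PBS libraries span 19.3 to 59.0 CPM while the DOX libraries span 23.1 to 27.2 CPM.

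Pdgfc was the member with the largest difference. Windows in the RefSeq promoter table were read for Pdgfa, Pdgfc, Pdgfd and Pdgfra but not for Pdgfrb, and Pdgfb was not in that table. Of the 4 genes read, only Pdgfc had a window wholly outside its gene, and its upstream sequence is printed. The window covers the 250 bases before the annotated start, chr3:81036166-81036415 of GRCm38.p6 on the plus strand, 5′ to 3′. Capitals mark a CArG box, the element bound by serum response factor.

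Pdgfc upstream: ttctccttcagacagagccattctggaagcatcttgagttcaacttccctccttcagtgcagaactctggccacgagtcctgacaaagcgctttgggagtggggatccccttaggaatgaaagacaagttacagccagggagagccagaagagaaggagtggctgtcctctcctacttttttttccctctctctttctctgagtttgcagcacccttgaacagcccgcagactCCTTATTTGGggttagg

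The CArG box ended 8 bases before the start. Of 32851 windows of the same length in that table, 1.47% held a CArG box. On either strand the window held no match to the EGR motif GCGGGGGCG (in 2.57% of windows), the SP motif GGGGCGGGG (in 10.4%), the AP1 motif TGACTCA (in 4.46%), the TATA box TATAAA (in 12.4%) or the ETS motif CCGGAAG (in 6.91%). Such a match is a description of the sequence and was not tested as a binding site. Srf, which encodes serum response factor, had 53.2 ± 4.36 CPM in the PBS libraries against 47.0 ± 10.8 CPM in the DOX libraries (SD, n = 3 each, edgeR adjusted p = 0.517).

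Among the ligands, Pdgfa was the most abundant in both groups. Pdgfa encodes the A chain and lies on chromosome 5 from 138976014 to 139000792 (GRCm38.p6, minus strand). Its counts were 6669, 5268 and 5149 in PBS libraries 1, 2 and 3, against 2570, 5456 and 3579 in DOX libraries 1, 2 and 3. This corresponded to 177, 138 and 130 CPM in PBS and 75.2, 154 and 97.7 CPM in DOX. DOX replicates 1 and 3 lay below all PBS libraries, while DOX replicate 2 lay between PBS replicates 1 and 2, so the groups overlapped. The log2 fold change was -0.45 (SE 0.26, 95% interval -1.06 to 0.17, edgeR adjusted p = 0.305). Without DOX replicate 2 it was -0.78 (edgeR adjusted p = 0.0733), and without DOX replicate 1 it was -0.24.

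Pdgfb, which encodes the B chain and is known for its expression in endothelium, lies on chromosome 15 from 79995865 to 80024614 (GRCm38.p6, minus strand). Its counts were 1428, 1378 and 929 in PBS libraries 1, 2 and 3, against 956, 1179 and 1155 in DOX libraries 1, 2 and 3. The levels were 37.9, 36.1 and 23.5 CPM in PBS and 28.0, 33.2 and 31.5 CPM in DOX. All DOX libraries fell inside the PBS range. The log2 fold change was -0.07 (SE 0.19, edgeR adjusted p = 0.837), and its 95% interval of -0.51 to 0.37 is the narrowest of the 6 members. Its sign turned without PBS replicate 1 (0.05), PBS replicate 2 (0.0098) or DOX replicate 1 (0.00076). Set against the summed FPKM of the 16 endothelial markers, Pdgfb amounted to 0.477%, 0.402% and 0.253% in PBS libraries 1, 2 and 3, against 0.351%, 0.405% and 0.447% in DOX libraries 1, 2 and 3. The DOX libraries again lay within the PBS range (exact two-sided permutation p = 0.8).

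Pdgfc encodes a chain that needs removal of its CUB domain outside the cell, and lies on chromosome 3 from 81036416 to 81214040 (GRCm38.p6, plus strand). Its counts were 236, 486 and 430 in PBS libraries 1, 2 and 3, against 916, 547 and 666 in DOX libraries 1, 2 and 3. As levels these were 6.26, 12.7 and 10.9 CPM in PBS and 26.8, 15.4 and 18.2 CPM in DOX. The gap between the groups, from 12.7 CPM in PBS replicate 2 to 15.4 CPM in DOX replicate 2, was smaller than the SD within either group (3.33 CPM in PBS and 5.95 CPM in DOX). The fold was 2.02 (log2 fold change 1.02, SE 0.31, 95% interval 0.29 to 1.74), with an unadjusted p of 0.0129 and an edgeR adjusted p of 0.0888. DESeq2 called it (log2 fold change 1.03, adjusted p = 0.0131) and limma-voom did not (adjusted p = 0.0869). Leaving out 1 library at a time gave log2 fold changes between 0.76 and 1.23, all positive, with edgeR adjusted p of at least 0.0983.

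Markers of other cell types were also higher in DOX. The summed FPKM of the 16 macrophage markers was 2768, 4009 and 2643 in PBS libraries 1, 2 and 3, against 7737, 4224 and 5354 in DOX libraries 1, 2 and 3, so each DOX library lay above each PBS library, as for Pdgfc. All 16 macrophage markers had a positive log2 fold change, and C1qb, C1qc and Cd14 passed the test, where 4.38% of all genes were called higher. The sums of the T and NK cell, neutrophil and cholangiocyte markers were likewise higher in each DOX library than in each PBS library, with T and NK cell sums of 3.87, 2.64 and 1.14 FPKM in PBS and 15.1, 7.11 and 13.4 FPKM in DOX. The cholangiocyte sums nearly touched, at 9.49, 37.8 and 40.0 FPKM in PBS and 40.2, 63.2 and 64.0 FPKM in DOX. The 14 hepatocyte markers summed to 144, 281 and 325 FPKM in PBS and to 595, 232 and 2298 FPKM in DOX, with DOX replicate 2 inside the PBS range. All 14 had a positive log2 fold change, but edgeR and limma-voom called 0 of them. DESeq2, which called 18.4% of all genes, called 6, and 12 had an unadjusted p under 0.05, as 28.7% of all genes did. The most abundant members were Lyz2 and Marco of the macrophage list and Alb and Trf of the hepatocyte list. The part of these cell types in the Pdgfc values was not tested.

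Pdgfd encodes the other CUB-bearing chain, a ligand of PDGFR beta, and lies on chromosome 9 from 6168363 to 6534284 (GRCm38.p6, plus strand). It was the scarcest member, with counts of 13, 30 and 38 in PBS libraries 1, 2 and 3, against 49, 39 and 50 in DOX libraries 1, 2 and 3. The levels were 0.345, 0.785 and 0.960 CPM in PBS and 1.43, 1.10 and 1.36 CPM in DOX. The groups did not overlap, but PBS replicate 3 and DOX replicate 2 were only 1 count apart before scaling. The log2 fold change was 0.89 (SE 0.41, 95% interval -0.08 to 1.87, edgeR adjusted p = 0.206) and was 0.57 without PBS replicate 1. On log2(FPKM + 1), a scale that compresses such low levels, it was 0.16, and on log2(FPKM + 0.1) it was 0.60. The 10 markers of portal fibroblasts and mesothelium summed to 20.7, 50.7 and 61.1 FPKM in PBS libraries 1, 2 and 3, against 42.0, 64.3 and 85.0 FPKM in DOX libraries 1, 2 and 3. Thy1 was the 1 of these 10 called by edgeR (2.02 ± 0.177 to 6.18 ± 1.36 CPM, SD, n = 3 each, edgeR adjusted p = 0.0240), where 4.38% of all genes were called higher. The T and NK cell sums given above were also higher in each DOX library than in each PBS library. Which cells the Thy1 values came from was not tested. DESeq2, which called 18.4% of all genes, called 2 of the 10. The log2 fold change was positive in 7 and negative in 3, with a list median of 0.67. The mesothelial gene Msln was the most abundant of that list and Fbln2, a fibulin gene, the next. PBS replicate 1 was the lowest library for Pdgfd and for this sum, as it was for the cholangiocyte and hepatocyte sums. In FPKM, DOX replicate 3 was the highest library for Pdgfd (0.380 FPKM) and for this sum. DOX replicate 1, the highest for Pdgfd in CPM (0.365 FPKM), had a sum below those of PBS replicates 2 and 3. The part of these cells in the Pdgfd values was not tested.

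Of the receptors, Pdgfra lies on chromosome 5 from 75151322 to 75198206 (GRCm38.p6, plus strand) and encodes PDGFR alpha, a marker of fibroblasts and stellate cells. Its counts were 1778, 1303 and 3571 in PBS libraries 1, 2 and 3, against 1309, 1513 and 2277 in DOX libraries 1, 2 and 3. The levels were 47.1, 34.1 and 90.2 CPM in PBS and 38.3, 42.6 and 62.1 CPM in DOX. PBS replicate 3 stood above all other libraries, and the 3 DOX libraries fell inside the PBS range. The log2 fold change of -0.26 (SE 0.36, 95% interval -1.11 to 0.59, edgeR adjusted p = 0.675) turned to 0.23 without PBS replicate 3 (edgeR adjusted p = 0.629).

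Pdgfrb, on chromosome 18, encodes PDGFR beta, the receptor of pericytes and activated stellate cells. Its counts were 1786, 737 and 2337 in PBS libraries 1, 2 and 3, against 788, 847 and 995 in DOX libraries 1, 2 and 3. At 47.3, 19.3 and 59.0 CPM in PBS and 23.1, 23.9 and 27.2 CPM in DOX, PBS replicates 1 and 3 were above all DOX libraries and PBS replicate 2 was below all of them. The DOX libraries lay close together (SD 2.17 CPM) beside a PBS SD of 20.4 CPM. The log2 fold change was -0.76 (SE 0.36, 95% interval -1.62 to 0.10, edgeR adjusted p = 0.219). It ranged from -1.11 without PBS replicate 2 (edgeR adjusted p = 0.0663) to -0.43 without PBS replicate 3. No setting called Pdgfrb, with adjusted p between 0.0663 and 0.509 over 17 alternatives. The fit without PBS replicate 2 called 0 of all genes, and 0.0663 was the smallest edgeR adjusted p of any gene in it.

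**Figure D2:**
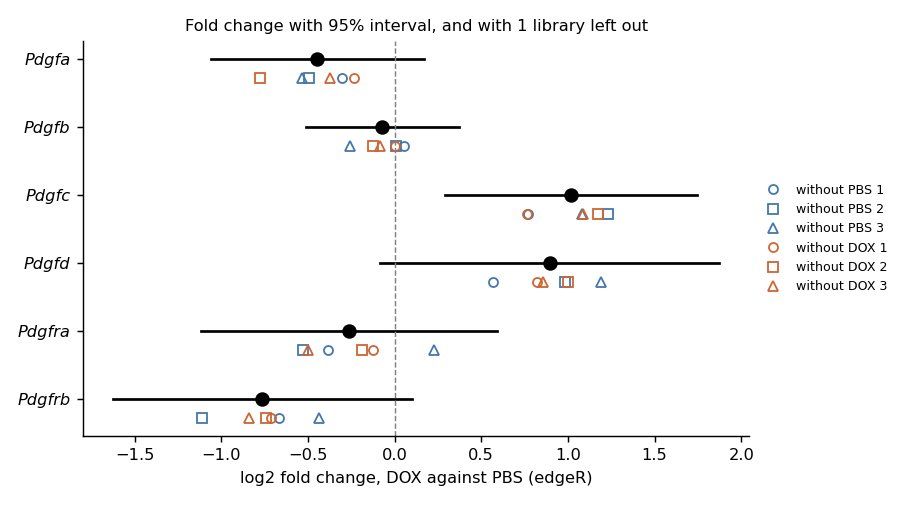
Log2 fold change of each PDGF gene, DOX against PBS (edgeR). Filled points and lines are the estimate and its 95% interval with all 6 libraries, and open symbols are the estimate with 1 library left out. All open symbols of Pdgfc and Pdgfd are above 0 and all of Pdgfa and Pdgfrb below 0, while those of Pdgfb and Pdgfra lie on both sides.

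The receptor values were next set against the summed FPKM of the stellate list. The 18 stellate markers, of which 17 were tested and 0 passed (DESeq2 and limma-voom also called 0, and 0 had an unadjusted p under 0.05), summed to 279, 280 and 606 FPKM in PBS libraries 1, 2 and 3, against 443, 487 and 318 FPKM in DOX libraries 1, 2 and 3. Over all genes 6.41% passed the edgeR test and 28.7% had an unadjusted p under 0.05. Most of the stellate sum came from Dcn (means of 247 FPKM in PBS and 252 FPKM in DOX) and Ecm1 (89.4 and 105 FPKM). The sum is therefore not a measure of stellate cell number. Pdgfrb amounted to 2.84%, 1.19% and 1.69% of the stellate sum in PBS and to 0.785%, 0.755% and 1.41% in DOX. DOX replicate 3 lay inside the PBS range, and DOX replicates 1 and 2 below it. The difference of mean log2 ratio was -0.92 (exact two-sided permutation p = 0.2). For Pdgfra the share was 1.88%, 1.40% and 1.71% in PBS and 0.866%, 0.896% and 2.14% in DOX, with DOX libraries on both sides of the PBS range (exact two-sided permutation p = 0.4). With 3 libraries against 3 the smallest p this test can give is 0.1.

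**Figure D3:**
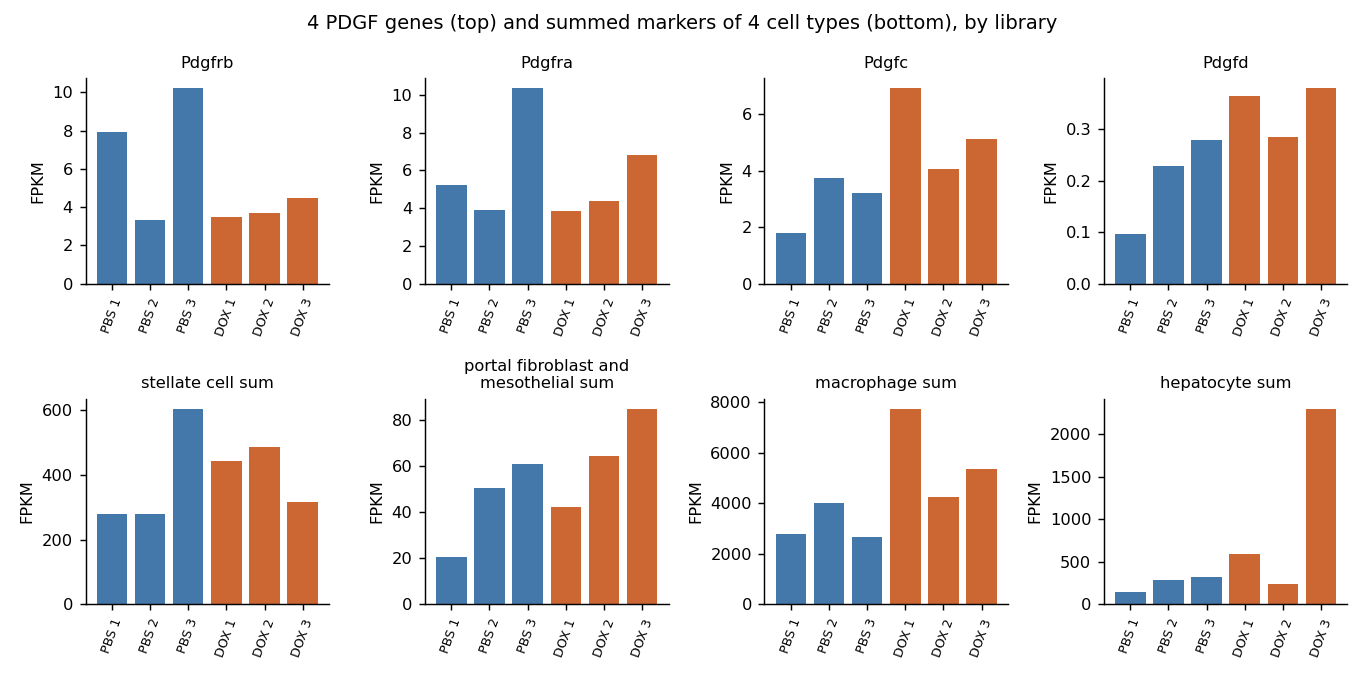
FPKM of Pdgfrb, Pdgfra, Pdgfc and Pdgfd (top row) and summed FPKM of stellate cell, portal fibroblast and mesothelial, macrophage and hepatocyte markers (bottom row) in each library; blue bars are PBS and orange bars DOX, and all axes start at 0. Pdgfra and the stellate sum share their highest library, PBS replicate 3, and Pdgfc and the macrophage sum share theirs, DOX replicate 1. Other libraries differ: DOX replicates 1 and 2 have higher stellate sums than DOX replicate 3 but lower Pdgfra. The lowest library is PBS replicate 1 for Pdgfc and PBS replicate 3 for the macrophage sum.

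Markers of smooth muscle and pericytes, cells that also carry PDGFR beta, summed to 118, 91.9 and 165 FPKM in PBS libraries 1, 2 and 3, against 114, 117 and 137 FPKM in DOX libraries 1, 2 and 3. PBS replicates 2 and 3 were the lowest and the highest library for this sum as they were for Pdgfrb. Of its 11 genes 9 were tested and 0 were called by edgeR (limma-voom also called 0, and 3 had an unadjusted p under 0.05). Kcnj8, a pericyte potassium channel gene, and Tagln, which encodes transgelin, were the most abundant, with log2 fold changes of 0.59 and -1.51 (edgeR adjusted p = 0.0840 and 0.0958). Kcnj8 alone had means of 64.5 FPKM in PBS and 88.9 FPKM in DOX. DESeq2, which called 18.4% of all genes, called 3 of the 9, Kcnj8 higher and Tagln and Acta2 lower. Acta2 had a log2 fold change of -1.13 (edgeR adjusted p = 0.0797). Of the 9 genes, 4 had a positive and 5 a negative log2 fold change. Platelets carry PDGF protein. Of their genes, Pf4 had means of 19.6 FPKM in PBS and 21.8 FPKM in DOX, and the integrin gene Itga2b 1.14 and 1.53 FPKM, while the membrane genes Gp1ba, Gp1bb, Gp9 and Gp6 had at most 0.0347 FPKM. Itgb3, which endothelial cells also express, was the most abundant gene of that list. The part of these cells in the PDGF values was not tested.

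The order of the 6 genes was read per length, in FPKM. In PBS it was Pdgfa (22.6 ± 3.36), Pdgfb (9.998 ± 2.32), Pdgfrb (7.15 ± 3.50), Pdgfra (6.50 ± 3.40), Pdgfc (2.91 ± 1.01) and Pdgfd (0.202 ± 0.0943 FPKM, SD, n = 3 each). Pdgfb, Pdgfrb and Pdgfra overlapped as neighbours, while Pdgfa stood clear of Pdgfb, Pdgfra of Pdgfc, and Pdgfc of Pdgfd. In DOX the order was Pdgfa (15.3 ± 5.56), Pdgfb (8.75 ± 0.977), Pdgfc (5.36 ± 1.44), Pdgfra (5.001 ± 1.58), Pdgfrb (3.88 ± 0.529) and Pdgfd (0.344 ± 0.0507 FPKM, SD, n = 3 each). There Pdgfc, Pdgfra and Pdgfrb overlapped as neighbours. The mean of Pdgfc was below both receptor means in PBS and above both in DOX. The libraries of Pdgfc and Pdgfrb overlapped in both groups, and in PBS replicate 2 Pdgfc (3.75 FPKM) was above Pdgfrb (3.33 FPKM).

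**Figure D4:**
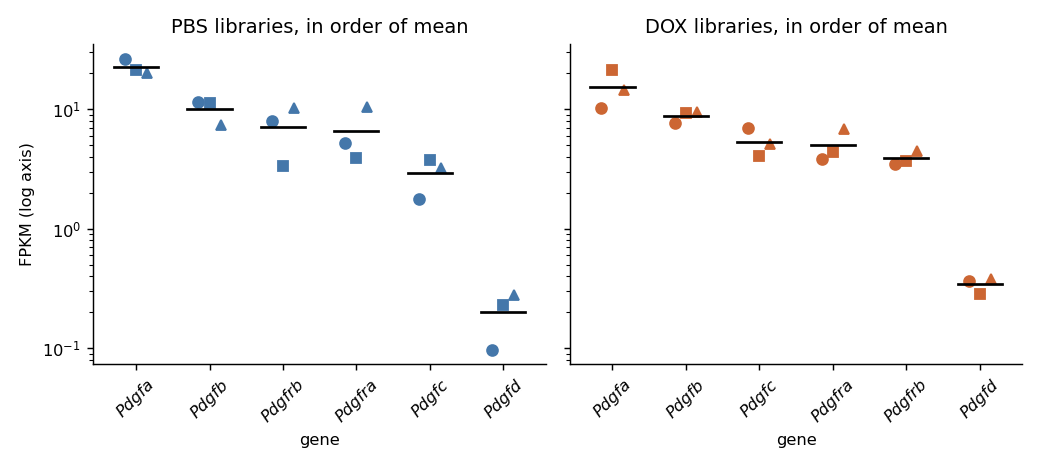
FPKM of the 6 PDGF genes in the PBS (left) and DOX (right) libraries on a log axis, in order of the group mean (black line); circles, squares and triangles are replicates 1, 2 and 3. Pdgfa is the highest and Pdgfd the lowest in both groups, and Pdgfc is the fifth in PBS and the third in DOX.

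Ratios within a library do not depend on the scaling between libraries. Pdgfra stood at 0.661, 1.17 and 1.01 times Pdgfrb in PBS libraries 1, 2 and 3, against 1.10, 1.19 and 1.52 times in DOX libraries 1, 2 and 3 (difference of mean log2 ratio 0.45, exact two-sided permutation p = 0.2). Pdgfb stood at 0.432, 0.528 and 0.364 times Pdgfa in PBS and at 0.750, 0.436 and 0.651 times in DOX (0.45, exact two-sided permutation p = 0.2). In both ratios 1 DOX library lay inside the PBS range. Pdgfb over its receptor gene Pdgfrb spread widely inside PBS, at 1.44, 3.38 and 0.718, against 2.19, 2.51 and 2.10 in DOX (exact two-sided permutation p = 0.5). Pdgfa over Pdgfra was 5.06, 5.45 and 1.94 in PBS and 2.65, 4.86 and 2.12 in DOX (exact two-sided permutation p = 0.7). Pdgfc stood at 18.4, 16.4 and 11.4 times Pdgfd in PBS and at 18.9, 14.2 and 13.5 times in DOX (difference 0.02, exact two-sided permutation p = 0.9), so the ratios overlapped while both ligands were higher in each DOX library than in each PBS library. Over the 8 ratios tested, adjusted p was between 0.533 and 0.9.

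Genes with profiles nearest to each member over the 6 libraries were found by the root-mean-square distance of centred log2 CPM among genes of at least 5 CPM (9960 candidates, or 9959 where the member was itself one). For Pdgfrb they were Frzb, a secreted Wnt antagonist gene (distance 0.10), Npr3, a natriuretic peptide clearance receptor gene (0.12), and Col15a1, a collagen gene (0.14), where Pdgfrb itself spread by 0.59. Frzb, for example, had 18.1, 6.04 and 22.4 CPM in PBS libraries 1, 2 and 3, against 7.99, 9.21 and 10.1 CPM in DOX libraries 1, 2 and 3. For Pdgfra, with a spread of 0.47, they were Sulf1, a heparan sulphate sulphatase gene (0.13), the elastin gene Eln (0.13) and H6pd (0.17). Pdgfc, with a spread of 0.65, had Pcolce2, which encodes a procollagen processing enhancer (0.097), Cpq (0.13) and the glutathione peroxidase gene Gpx3 (0.14). Pdgfd, with a spread of 0.64, had Ldhb, a lactate dehydrogenase gene (0.10), again Pcolce2 (0.18), and Efemp1, a fibulin gene (0.19). Pdgfa had the transcription factor genes Zeb1 and Jdp2 and Cyp7b1 (0.13, 0.13 and 0.14, at a spread of 0.41), and Pdgfb had Akna, Emc2 and Pwwp2b (0.084, 0.11 and 0.11, at a spread of 0.23). No nearest gene of any member passed the edgeR test between the groups. As they were chosen by likeness to members that did not pass, this is not a separate result.

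Ligand processing enzymes and co-receptors formed the first of 5 pathway lists. Nrp1, which encodes neuropilin 1, a co-receptor for PDGF and VEGF, fell from 139, 138 and 138 CPM in PBS libraries 1, 2 and 3 to 78.5, 80.0 and 99.0 CPM in DOX libraries 1, 2 and 3. The PBS libraries were nearly equal and all DOX libraries were lower (log2 fold change -0.69 with an SE of 0.11, adjusted p = 0.0265 by edgeR). It was the 1 of 11 tested members that passed, where 2.04% of all genes were called lower, with a list median of 0.05. DESeq2, which called 11.6% of all genes higher, also called 1 member higher. The Nrp1 call was lost without PBS replicate 2, PBS replicate 3, DOX replicate 1 or DOX replicate 2. Without PBS replicate 2 or 3 edgeR called 0 of all genes, so each call named below was also lost there. Without DOX replicate 1 it called 76 genes higher and 9 lower. The endothelial markers Tek and Ptprb also fell, and 13 of the 16 endothelial markers had a negative log2 fold change. Their sum was 2397, 2793 and 2899 FPKM in PBS and 2174, 2283 and 2101 FPKM in DOX. In TMM-scaled CPM, the scale of the Nrp1 values, the sums were 7558, 8984 and 9221 in PBS and 7731, 7797 and 6580 in DOX. On that scale the groups overlapped. The part of endothelial RNA in the Nrp1 values was not tested. The convertase gene Furin had 421 ± 22.8 CPM in the PBS libraries against 436 ± 34.3 CPM in the DOX libraries (SD, n = 3 each, edgeR adjusted p = 0.771). Plat and Plau, whose proteases can release active PDGF-C and PDGF-D, had log2 fold changes of -0.40 and -0.29 (edgeR adjusted p = 0.428 and 0.196). St14, the gene of matriptase, which can process PDGF-D, had 0.588 ± 0.183 CPM in the PBS libraries against 1.74 ± 0.503 CPM in the DOX libraries (SD, n = 3 each, edgeR adjusted p = 0.0527). Sparc, whose matrix protein binds PDGF-B, had a log2 fold change of -0.38 (edgeR adjusted p = 0.218), and Pdgfrl, a receptor-like gene, 0.71 with overlapping groups (edgeR adjusted p = 0.458).

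Of 33 receptor-proximal signalling genes, 1 was called higher and 1 lower, with a list median of 0.12, beside 4.38% and 2.04% of all genes. DESeq2, which called 11.6% of all genes higher and 6.82% lower, called 6 members higher and 1 lower, and without DOX replicate 3 edgeR called 5 higher and 0 lower. Plcg1, which encodes the phospholipase C that docks on PDGF receptors, fell from 52.4, 67.5 and 64.1 CPM in PBS libraries 1, 2 and 3 to 44.0, 42.1 and 42.6 CPM in DOX libraries 1, 2 and 3 (log2 fold change -0.52 with an SE of 0.11, adjusted p = 0.0441 by edgeR). Pik3r1, the gene of a regulatory subunit of phosphoinositide 3-kinase, rose from 62.3, 58.6 and 58.1 CPM to 83.8, 86.6 and 74.8 CPM (log2 fold change 0.45 with an SE of 0.09, adjusted p = 0.0352 by edgeR). Neither gene's groups overlapped. With the replicate number as a block neither was called, and the Pik3r1 call was also lost in each of the 3 fits on FPKM values. The Plcg1 call was lost in 5 of the 6 fits that left out a library (all but that without PBS replicate 1), and the Pik3r1 call in 5 of 6 (all but that without DOX replicate 3). Among these, the fits without PBS replicate 2 or 3 called 0 of all genes. The most abundant members Rac1, Map2k1 and Akt1 had log2 fold changes of 0.17, 0.52 and -0.21 (edgeR adjusted p = 0.233, 0.0656 and 0.203).

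Of 17 negative regulators, 1 was called higher and 1 lower, with a list median of 0.03, beside 4.38% and 2.04% of all genes. DESeq2 called 2 higher and 1 lower, beside 11.6% and 6.82% of all genes. Ptprj, a receptor phosphatase gene whose product dephosphorylates PDGFR beta, rose from 86.0, 101 and 78.5 CPM in PBS libraries 1, 2 and 3 to 215, 164 and 158 CPM in DOX libraries 1, 2 and 3 (2.03-fold, log2 fold change 1.02 with an SE of 0.15, adjusted p = 0.0247 by edgeR). Every DOX library lay well above the PBS libraries. The call was lost without DOX replicate 1, and without PBS replicate 2 or 3, fits that called 0 of all genes. Ptprj is also abundant in leukocytes, and the macrophage sums given above were higher in each DOX library than in each PBS library, a part that was not tested. Sh2b3, the gene of the adaptor LNK, fell from 125, 143 and 161 CPM to 103, 94.3 and 103 CPM (log2 fold change -0.51 with an SE of 0.11, adjusted p = 0.0427 by edgeR), a call lost under the replicate block and without any 1 of the libraries other than PBS replicate 1. Dusp6, Ptpn1 and Spred1, the most abundant members, had log2 fold changes of 0.35, 0.76 and 0.40 (edgeR adjusted p = 0.104, 0.0522 and 0.112).

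Among 22 growth factor response genes, 2 were called higher and 1 lower, with a list median of 0.17, beside 4.38% and 2.04% of all genes. DESeq2 called 6 higher and 1 lower, beside 11.6% and 6.82% of all genes. Ccnd1, the cyclin D1 gene of the G1 phase, rose from 32.1, 44.6 and 37.99 CPM in PBS libraries 1, 2 and 3 to 164, 86.6 and 81.1 CPM in DOX libraries 1, 2 and 3 (2.89-fold, log2 fold change 1.53 with an SE of 0.29, adjusted p = 0.0334 by edgeR). DOX replicate 1 stood far above the others. Its call was lost under the replicate block and without PBS replicate 1, 2 or 3. Fos, an immediate-early transcription factor gene, rose from 13.8, 12.7 and 13.9 CPM to 31.3, 22.6 and 24.9 CPM (log2 fold change 0.96 with an SE of 0.15, adjusted p = 0.0255 by edgeR). Dusp4, a MAP kinase phosphatase gene, fell from 229, 228 and 275 CPM to 107, 138 and 151 CPM (log2 fold change -0.88 with an SE of 0.15, adjusted p = 0.0290 by edgeR). The Fos and Dusp4 calls were lost without PBS replicate 2, PBS replicate 3 or DOX replicate 1, and that of Dusp4 also without DOX replicate 2. For these 3 genes, loss without PBS replicate 2 or 3 was shared with every gene, as 0 were called. The chemokine genes Ccl2 and Ccl7 and the stress gene Ier3, the most abundant members, had log2 fold changes of 0.08, 0.18 and 0.03 (edgeR adjusted p between 0.585 and 0.900).

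The last list held 15 related receptor kinases and ligands. Flt3, the gene of a receptor of haematopoietic progenitors and dendritic cells, rose from 28, 45 and 18 counts in PBS libraries 1, 2 and 3 to 147, 93 and 123 counts in DOX libraries 1, 2 and 3 (log2 fold change 2.11 with an SE of 0.40, adjusted p = 0.0346 by edgeR) and was the 1 member called. This call was lost under the replicate block and without any 1 library other than DOX replicate 3. Of those fits, the ones without PBS replicate 2 or 3 called 0 of all genes. The list median was -0.10, and edgeR called 4.38% of all genes higher and 2.04% lower. DESeq2 called 2 members higher and 2 lower, beside 11.6% and 6.82% of all genes. With library totals alone and in each of the 3 fits on FPKM values, 2 members were also called lower. Csf1r and Kit encode receptors of the same class of tyrosine kinases as the PDGF receptors. Csf1r, which is known from macrophages, had 244 ± 52.9 CPM in the PBS libraries against 537 ± 217 CPM in the DOX libraries (SD, n = 3 each, edgeR adjusted p = 0.0630), and Kit 412 ± 9.27 and 398 ± 44.3 CPM (edgeR adjusted p = 0.797). Csf1, the gene of a ligand of the Csf1r product, had a log2 fold change of -0.65 (edgeR adjusted p = 0.145).

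**Figure D5:**
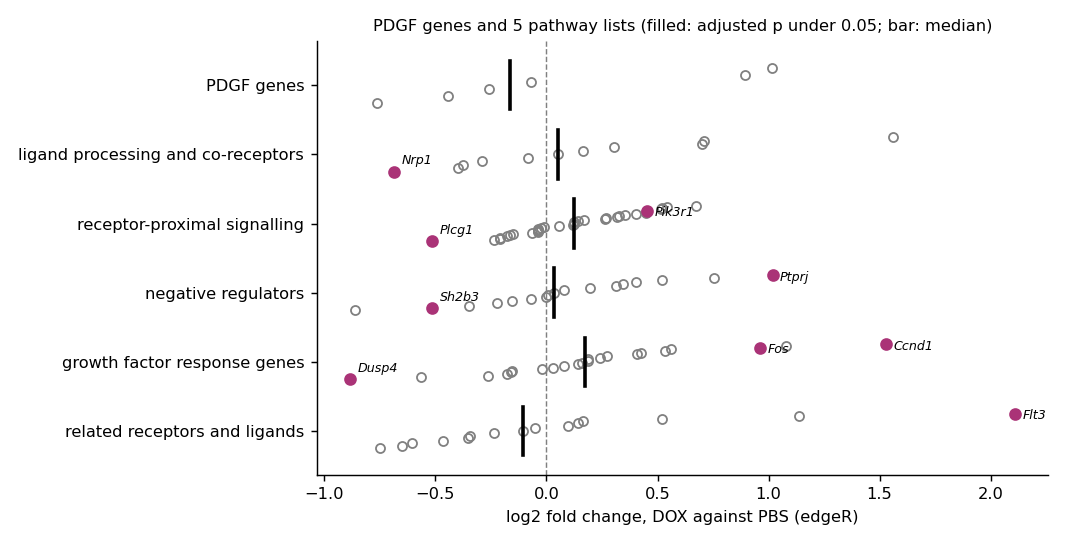
Log2 fold change, DOX against PBS (edgeR), of the 6 PDGF genes and of the tested members of 5 pathway lists, 1 point per gene. Filled points are genes past an adjusted p of 0.05 and black bars are medians; no PDGF gene is filled, and each list has between 1 and 3 filled genes.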

How the data were processed

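RNA-seq of 6 libraries was analysed, with groups and replicate numbers taken from the sample titles. The authors deposited raw counts for 22905 gene symbols and FPKM values of the same genes, without pooling replicates. Each nonzero deposited FPKM value matched the count per fixed gene length and library total within 0.1% (100% of values). Per the submitters' processing notes the builds were GRCm38, mm10 and hg38, without saying what each served for. Aligner, counting tool and strand setting: not given in the sources used here. GENCODE M21 places antisense genes over the spans of Pdgfa, Pdgfb, Pdgfc and Pdgfra. Over the span of Pdgfd it places Ddi1, a protein-coding gene on the other strand. Whether reads of these genes were counted to the PDGF genes is not known, and overlap of their exons was not examined.

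The test was edgeR 4.0.16 (R 4.3.3), quasi-likelihood, two-sided, with TMM factors, 1 term for the group and filterByExpr (minimum count 10, minimum total 15), Benjamini-Hochberg adjusted over 14439 genes at a threshold of 0.05. SEs derive from the F statistic, and 95% intervals from that SE and the test's degrees of freedom. 1 read was worth 0.0253 to 0.0293 CPM, which covers counting error only. Replicates differed beyond sampling noise (chi-square per degree of freedom 38.6 to 82.1). The code was tested on simulated data. Alternatives were RLE, upper-quartile and no factors, no filter, 5 CPM in 3 samples, DESeq2 1.42.0, limma-voom (limma 3.58.1), a replicate block, limma after adding 1 or 0.1 to FPKM before taking log2, the same with genes of at least 1 FPKM, and leaving out each library.

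The members and the 16 lists were chosen with earlier results of these data known. Named genes are the members, Bche, called genes and the 3 most abundant (by FPKM) of each pathway list, the 2 most abundant of each marker list whose sums are given, and the 3 nearest profiles of each member. Lrat, Des, Gfap, Srf, Plat, St14, Pdgfrl, Thy1, Acta2, Tek, Ptprb, C1qb, C1qc, Cd14, Itga2b and the platelet membrane genes were added after their values were seen. Lists of the other cell types gave these counts of called genes, all higher: cholangiocyte 1 of 6 tested, T and NK cell 3 of 8, neutrophil 3 of 4 and B cell 0 of 3 (DESeq2 and limma-voom called 0, and 1 had an unadjusted p under 0.05). Over all genes 4.38% were called higher. Coordinates and the promoter are from RefSeq (GRCm38.p6).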

Additional observations from a re-analysis of the deposited data

How the results depend on the processing

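No PDGF gene changed its call under any alternative except Pdgfc, called by DESeq2 (1.03). With 1 library left out, log2 fold changes were -0.78 to -0.24 for Pdgfa, -0.26 to 0.052 for Pdgfb (0.0098 without PBS replicate 2 and 0.00076 without DOX replicate 1), 0.76 to 1.23 for Pdgfc, 0.57 to 1.19 for Pdgfd, -0.53 to 0.23 for Pdgfra and -1.11 to -0.43 for Pdgfrb. Differences of mean log2 ratio were then -0.80 to -0.06 for Pdgfa to Pdgfra, 0.29 to 0.68 for Pdgfb to Pdgfa, 0.03 to 1.15 for Pdgfb to Pdgfrb, -0.18 to 0.16 for Pdgfc to Pdgfd, 0.20 to 0.62 for Pdgfra to Pdgfrb, -0.91 to -0.25 for Pdgfra and -1.22 to -0.59 for Pdgfrb to the stellate sum, and -0.14 to 0.32 for Pdgfb to the endothelial sum. Pdgfd had no value under the filters of 5 CPM and 1 FPKM.

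Over all genes, 632 were called higher and 294 lower. DESeq2 called 1673 higher and 985 lower. Library totals alone shifted the median of all genes by -0.13 and called 611 higher and 730 lower, and on that scale the medians of the processing, signalling and negative regulator lists were -0.08, -0.0047 and -0.10. Genes called lower were 464 on log2(FPKM + 0.1) and 678 with the filter of 1 FPKM, beside 494 and 501 higher. Leaving out a library gave 0 to 722 higher and 0 to 368 lower. Without PBS replicate 2 or 3 edgeR called 0 genes (3294 and 3092 at an unadjusted p under 0.05). The cause was not tested.

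Replicate numbers are shared between the groups. Deviations from the group means correlated at r = 0.09, -0.11 and 0.23 between same-numbered libraries, over 14439 genes. For libraries of unlike number r was between -0.23 and 0.14, so replicate 3 gave the highest value. With 3 libraries per group these values cannot settle whether the numbers are pairs, and the main fit did not take them as such. With the replicate block 622 genes were called higher and 159 lower, and the log2 fold changes were -0.49 for Pdgfa, -0.04 for Pdgfb, 1.03 for Pdgfc, 0.97 for Pdgfd, -0.17 for Pdgfra and -0.63 for Pdgfrb, with no member called (edgeR adjusted p between 0.157 and 0.904).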

Other observations

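Gm41361, an antisense gene that GENCODE M21 places over Pdgfb, had 15, 18 and 27 counts in PBS replicates 1, 2 and 3 and 47, 31 and 33 counts in DOX replicates 1, 2 and 3, so that its groups did not overlap while those of Pdgfb did. Its log2 fold change was 1.01 (edgeR adjusted p = 0.125). Its counts were between 1.05% and 4.92% of those of Pdgfb.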
